A study of Saccharomyces cerevisiae with 21 samples.

Results

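RNA of Saccharomyces cerevisiae was compared between 48 h and 24 h of a 15-day wine fermentation, the first step of the main study, during which the ethanol level given for the culture went from 0.5% to 2%. The 6 arrays titled for those times, 3 biological replicates each, were taken from the 21 one-colour Affymetrix yeast arrays of the series, and all 9275 probe sets other than the controls were described. The other 15 arrays were harvested at 1, 12, 60, 120 and 340 h, again in triplicate, with 3.5%, 7% and 10% ethanol given for 60, 120 and 340 h. The labels give no strain, medium, sugar level or treatment for any array, so the groups differ, as labelled, in time of harvest and ethanol alone. Time, ethanol, and the use of sugar and nitrogen cannot be told apart in this design. Genes were read on 1 probe set each, which gave 5656 genes.

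When yeast ferments grape must, it takes up glucose fast and makes ethanol, while glucose represses the genes of respiration, of other carbon sources and of many reserves. Assimilable nitrogen in must is limited, and its loss stops growth, lowers the making of ribosomes and releases the genes for poor nitrogen sources from repression. Genes under the stress factors Msn2 and Msn4 respond to many conditions, among them starvation, slow growth and ethanol. Changes are log2 differences of RNA signal, 48 h minus 24 h, each with the standard error of the limma fit (n = 3 arrays a time). The words rose and fell are kept for genes with an adjusted p (Benjamini-Hochberg) below 0.05. Signals of different genes are not compared, since probe sets differ in brightness. The values describe the RNA extracted, in which a change in all cells and a change in the share of cells of one state cannot be told apart.

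Of the 5656 genes, 1030 passed (18.2%), 637 of them higher at 48 h (11.3%) and 393 lower (6.95%). Changes of at least 2-fold were found for 297 higher and 123 lower genes. All 297 of the former are protein-coding, but only 41 of the latter are, and most of the rest are tRNA genes. The median change over all genes was -0.02, and the median standard error was 0.20. Of the genes that passed, 1019 had 3 arrays of one time all on one side of the 3 of the other time, and 11 had arrays that overlapped. Across all genes, whether they passed or not, the 48 h arrays all lay above the 24 h arrays in 1159 genes (20.5%) and all below in 1060 (18.7%). The genes that fell had a median signal of 8.24 at 24 h, against 6.79 for all genes and 7.17 for those that rose.

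**Figure D1:**
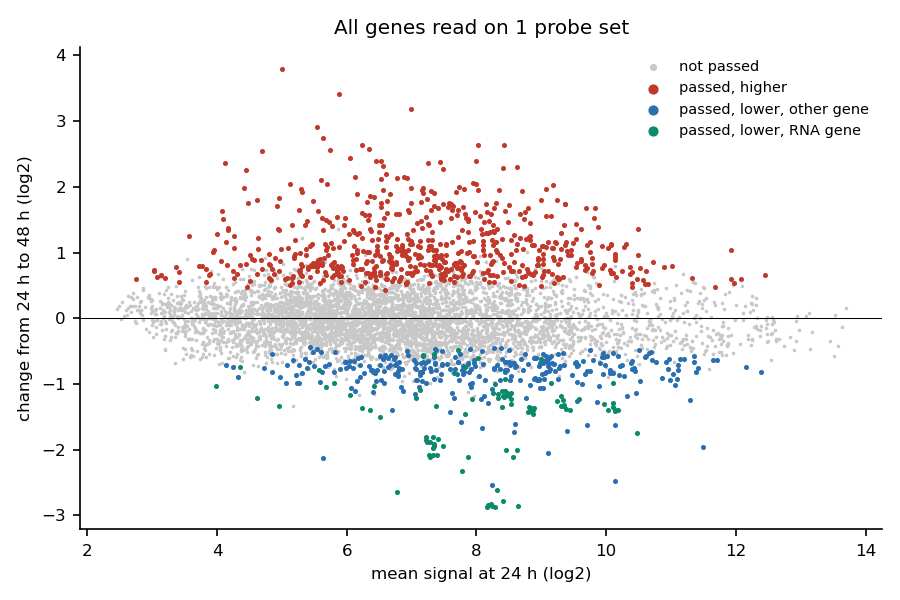
Change from 24 h to 48 h (log2, vertical axis) against the mean signal of the 3 arrays of 24 h (log2, horizontal axis), 1 point per gene for 5656 genes. Red points passed and were higher at 48 h, blue points passed and were lower, green points are RNA genes that passed and were lower, and grey points did not pass. The 3 largest rises lie above 3, and the green points make up most of the falls beyond -2.

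Replicates at 48 h were closer to each other than those at 24 h. The mean Pearson r across genes, which are not independent replicates, with the other arrays of the same time was 0.986 to 0.991 at 48 h and 0.960 to 0.978 at 24 h, with 24 h replicate 3 lowest. That array also had the highest 18S ribosomal RNA controls of the 6, at 9.33 against 6.36 and 6.49 for the other arrays of 24 h and 5.86 to 8.30 at 48 h (exact permutation p = 0.8 between times, two-sided, smallest possible 0.1). The differences between 3' and 5' control probe sets of ACT1, SPT15 and SRB4 gave exact permutation p-values of 0.4, 0.6 and 0.7, in a design whose smallest p is again 0.1. For ACT1 that difference read 1.03, 1.25 and 2.02 at 24 h and 1.93, 1.86 and 1.73 at 48 h, a gap of 0.41 that was 0.70 without 24 h replicate 3. Without the same array the 18S difference went from -0.28 to 0.68. The part of RNA quality in the changes was not tested. Without 24 h replicate 3, 589 genes were higher and 414 lower. Without 48 h replicate 1, 400 genes were higher and 230 lower, a total of 630, and this was the only array whose loss moved the total by more than 1.5 times. Without 48 h replicate 3, the number lower was 256.

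How many genes count as lower depends on the scale. The share of genes called higher was 61.8% as deposited. It was 88.7%, with 1031 higher (18.2%) and 132 lower (2.33%), after each array was centred on its median over 5 reference genes (ACT1, ALG9, TAF10, TFC1 and UBC6). That median went from 8.61 ± 0.07 to 8.33 ± 0.14 (SD, n = 3), a difference of -0.28, which raised the median change of all genes to 0.26. Yet the 5 genes' own changes ran from -0.43 for TAF10 to 0.20 for UBC6, with a median of -0.03, and none passed. The gene at the array median need not be the same on every array, so the -0.03 and the -0.28 can differ. Centred on the mean of the 5 genes, a setting added after the data were seen, 683 genes were higher and 284 lower (70.6% higher), with a median change of 0.06. For most groups that fell, the count on the median of the reference genes is therefore given too. A call is said to be lost to a left-out array where the gene did not pass without at least 1 of the 6 arrays.

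The listed genes of the respiratory chain rose nearly throughout. This chain passes electrons from succinate, lactate and NADH through cytochrome c to oxygen, and its gradient drives ATP synthase. All 9 listed genes of complex III rose, with a median change of 1.62, as did 8 of 9 listed genes of complex IV, cytochrome c oxidase, with a median of 1.52. In ATP synthase and its regulators 17 of 20 listed genes rose, with a median of 1.13. None of these 38 genes fell. The lists leave out some measured genes of these complexes. Mean signals at 24 h and 48 h were 2.82 and 3.09 for COB, 6.28 and 7.25 for COX1, and 2.74 and 2.92 for COX2. They were 2.97 and 3.27 for COX3, 6.70 and 6.91 for COX26, 3.36 and 3.84 for ATP6, and 2.83 and 2.95 for ATP8. Of these, all but COX1 and COX26 lie at the dim end of the scale. Whichever of the 6 arrays was left out, 8 genes of complex III, 7 of complex IV and 13 of ATP synthase kept their call.

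QCR10, a small subunit of complex III, read 7.07, 7.18 and 6.72 on replicates 1 to 3 at 24 h and 10.25, 10.16 and 10.10 at 48 h. The 2 sets of arrays lay far apart and differed by 3.18 ± 0.17 (adjusted p = 3.36e-08), the lowest adjusted p of the genes named here. Of the catalytic subunits, the Rieske iron-sulfur protein RIP1 read 9.66, 8.97 and 7.64 at 24 h and 10.70, 10.66 and 9.77 at 48 h, and rose by 1.62 ± 0.37, or 1.06 without 24 h replicate 3. Cytochrome c1, CYT1, rose by 1.57 ± 0.36 (adjusted p = 0.00839), and this call was lost without 48 h replicate 1 (adjusted p = 0.0559). In both genes replicate 3 was the lowest array at each time. The core proteins COR1 (1.76 ± 0.35) and QCR2 (1.68 ± 0.24) and the small subunits QCR9, QCR6 (1.56), QCR8 (1.43) and QCR7 (1.39) moved in the same direction.

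In cytochrome c oxidase the largest rise was that of COX13, a small subunit, from 8.34, 7.96 and 7.68 to 10.59, 10.49 and 10.07 (2.39 ± 0.19, adjusted p = 1.74e-06). COX4 (2.06 ± 0.27), COX7 (1.79 ± 0.16), COX12 (1.52 ± 0.19), COX6 (1.48 ± 0.28), COX9 (1.25) and COX8 (1.14) also rose, and of these calls that of COX9 was lost to a left-out array. Subunit V exists in 2 forms, of which COX5A is made with oxygen and COX5B without it. COX5A rose by 1.96 ± 0.23, from 8.18, 7.71 and 7.53 to 10.14, 9.97 and 9.19. COX5B, the member of the complex IV list that did not pass, changed by 0.26 (adjusted p = 0.49).

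INH1 encodes an inhibitor that binds ATP synthase and stops it from breaking down ATP. It read 6.26, 6.29 and 5.10 at 24 h and 9.52, 9.24 and 9.13 at 48 h, a rise of 3.42 ± 0.27 (adjusted p = 1.58e-06) and the second largest of all named genes. The enzyme's catalytic subunits ATP1 (1.14) and ATP2 (1.36 ± 0.25) rose, as did ATP7 (1.64 ± 0.37), ATP14 (1.47 ± 0.19), ATP16 (1.29 ± 0.18) and ATP20 (1.28 ± 0.20), and the INH1-related STF1 (1.16) and STF2 (1.11). The 3 listed genes that did not pass were ATP10 (-0.19), ATP11 (0.30) and ATP12 (0.39), all of which are assembly factors of the enzyme and not parts of it.

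Among electron donors and cytochrome c, 8 of 13 genes rose and 1 fell (median 0.73), and 5 of the 8 kept the call without each array in turn. CYB2, the L-lactate dehydrogenase that feeds cytochrome c, had the largest rise of all genes named. It read 5.80, 5.29 and 3.93 at 24 h and 9.51, 8.96 and 7.92 at 48 h (3.79 ± 0.46, adjusted p = 4.11e-05). Both cytochrome c genes rose, CYC1, the aerobic form, by 1.90 ± 0.33 and CYC7, long known as the form made with little oxygen, by 1.74 ± 0.20. The D-lactate dehydrogenase DLD1, the haem lyase CYC3 (1.55 ± 0.22) and the internal NADH dehydrogenase NDI1 (1.01 ± 0.28, adjusted p = 0.115 without 48 h replicate 1) rose as well. The cytosolic DLD3 went from 7.97, 7.94 and 8.23 to 6.88, 7.27 and 7.35 (-0.88 ± 0.20), which did not pass without 48 h replicate 1 (adjusted p = 0.0571) or on the median of the reference genes (adjusted p = 0.0556).

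In the TCA cycle 10 of 16 genes rose and none fell (median 0.84). All 4 subunits of succinate dehydrogenase, which belongs to the cycle and to the respiratory chain, were among them: SDH1, SDH2, SDH3 and SDH4, with changes from 1.18 ± 0.22 for SDH1 to 1.67 ± 0.19 for SDH4. Malate dehydrogenase MDH1 (1.13 ± 0.18), KGD1 (0.91 ± 0.19) and KGD2 (0.84) of 2-oxoglutarate dehydrogenase, citrate synthase CIT1 (0.90) and the succinyl-CoA ligase genes LSC1 (0.74) and LSC2 (0.84) rose too, and of the 10 calls that of CIT1 was lost to a left-out array. The isocitrate dehydrogenase subunits IDH1 (0.23) and IDH2 (0.26) and aconitase ACO1 (0.43) did not pass. Their steps lie between citrate and 2-oxoglutarate, the branch that also supplies glutamate. LPD1 (0.02), FUM1 (0.62) and CIT3 (-0.34) did not pass either, so the genes not called were not confined to that branch. Whether the parts of the cycle differ was not tested.

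Genes for making these complexes moved by less. Of 33 genes of respiratory assembly and mitochondrial gene expression, 13 rose (median 0.54), with COX15 (1.36 ± 0.38, adjusted p = 0.102 without 48 h replicate 1, and a change of 0.68 without 24 h replicate 3), which acts in the synthesis of haem a, and CBP6 (1.33 ± 0.16), which serves translation of cytochrome b, the largest. Mitochondrial ribosomal proteins had 44 of 78 genes higher and none lower (median 0.64), within a narrow range of -0.06 to 1.45. MRPL44 rose most, from 6.84, 6.99 and 7.44 to 8.54, 8.32 and 8.75. The number higher was 43 without 24 h replicate 3 but 25 without 48 h replicate 1, and 20 of the 44 kept the call in every such fit. On the median of the reference genes 64 were higher. Of 30 genes of mitochondrial protein import 3 rose, a share (10.0%) below that of all genes (11.3%), HSP78 (1.34 ± 0.22), TIM9 (0.80) and TIM10 (0.63), the first a chaperone of the matrix that is also a target of Msn2 and Msn4. The calls of TIM9 and TIM10 were lost to a left-out array.

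**Figure D2:**
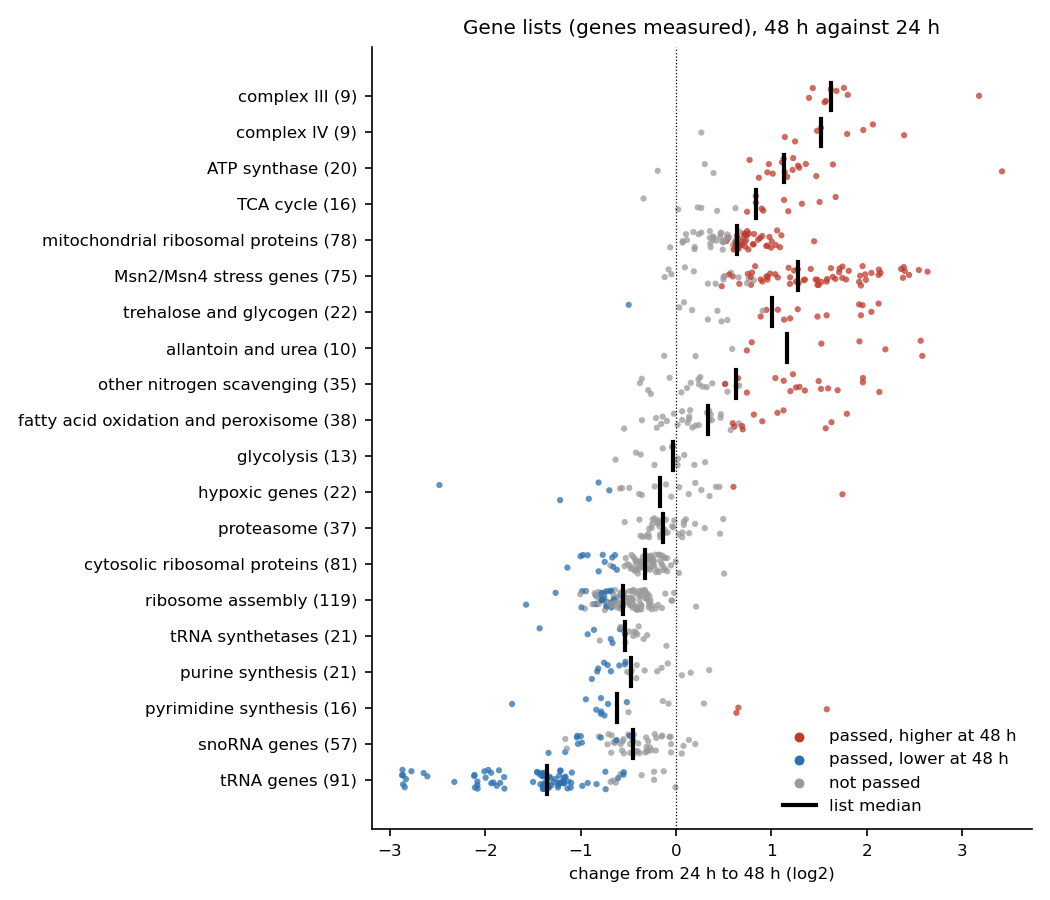
Change from 24 h to 48 h (log2, horizontal axis) of every measured gene of 20 lists, 1 point per gene, with the number of genes measured in brackets. Red genes passed and were higher, blue genes passed and were lower, grey genes did not pass, and the black bar is the list's median. The lists of complex III, complex IV and ATP synthase have medians of 1.62, 1.52 and 1.13, glycolysis lies at -0.03 with no gene called, and tRNA genes lie at -1.36.

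Hypoxic genes, which need low oxygen or low haem, moved both ways. Of 22 measured, 5 fell and 2 rose, with a median of -0.17 that turned to 0.12 on the median of the reference genes, where 2 were lower and 3 higher. AAC3, the ADP/ATP carrier of anaerobic cells, read 10.12, 10.01 and 10.28 at 24 h and 7.43, 7.72 and 7.82 at 48 h. Its fall of -2.48 ± 0.19 (adjusted p = 1e-06) was held on every scale tried. The sterol importer AUS1, which anaerobic cells depend on, fell from 8.37, 8.60 and 9.31 to 7.36, 7.45 and 7.82 (-1.22 ± 0.23). The 2 of 10 haem synthesis genes that fell, HEM13 (-0.92 ± 0.23) and HEM14 (-0.70 ± 0.19), use oxygen, and the translation factor gene ANB1 (-0.81 ± 0.22), whose probe set may also read its close copy HYP2, fell as well. None of these 3 passed without 48 h replicate 1 (adjusted p 0.0802 to 0.103) or on the median of the reference genes (0.135 to 0.226). CYC7 (1.74) and the mannoprotein DAN4 (0.60, adjusted p = 0.12 without 24 h replicate 2) rose. The hypoxic mannoproteins TIR1 (-0.57), TIR3 (-0.05), TIR4 (-0.39) and DAN1 (-0.36), the repressor ROX1 (0.45) and the sterol regulator UPC2 (-0.59) did not pass. No measurement of oxygen is given in the labels.

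Glycolytic genes showed no call. Of 13 measured, none passed, with a median of -0.03 and changes from -0.64 for ENO2 (adjusted p = 0.14) to 0.30 for PYK2. Copies of enolase and glyceraldehyde-3-phosphate dehydrogenase are close in sequence, so their probe sets may share signal. The first step of glucose use did differ between its enzymes. HXK2, the hexokinase of growth on high glucose, which also acts in glucose repression, read 11.08, 11.40 and 10.72 at 24 h and 9.88, 10.37 and 9.92 at 48 h (-1.01 ± 0.20, adjusted p = 0.00316). GLK1 (0.99 ± 0.18) and HXK1 (0.90 ± 0.19), the kinases that glucose represses, rose. In all 3 genes the arrays of the 2 times did not overlap, as in nearly all genes that passed. The 3 calls held without each array in turn and on the median of the reference genes.

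Of 11 hexose transporter genes 2 rose (18.2%, against 11.3% of all genes). HXT4, of high affinity, went from 9.21, 8.87 and 7.25 to 10.13, 10.20 and 9.91 (1.64 ± 0.34). HXT6, also of high affinity, went from 10.0, 9.71 and 8.39 to 10.51, 10.40 and 10.57 (1.12 ± 0.29, adjusted p = 0.0519 without 48 h replicate 1). The latter is nearly identical to HXT7 (0.71, not passed), and its probe set is of a shared type. In both genes 24 h replicate 3 was the lowest array by more than 1 log2 unit, and without it the changes were 1.04 for HXT4 and 0.63 for HXT6. The low-affinity HXT1 (-0.52) and HXT3 (0.25) did not pass. Of 24 genes of glucose sensing and repression 4 rose (16.7%, against 11.3% of all genes). They were the repressor NRG2 (1.59 ± 0.16), SIP2 (0.91 ± 0.17) of the Snf1 kinase, the repressor RGT1 (0.74) and the glucose sensor RGT2 (0.62). The last 2 did not pass without 48 h replicate 3 (adjusted p = 0.144) and 48 h replicate 1 (adjusted p = 0.165). HAP4, the limiting subunit of the activator of respiratory genes, changed by 0.95 (adjusted p = 0.061). It did not pass as fitted here, passed under 10 of 18 alternatives, and changed by 0.48 without 24 h replicate 3.

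At the branch from pyruvate to ethanol, the main enzyme genes PDC1 (0.09) and ADH1 (-0.09) did not pass. Of 10 genes 2 rose, PDC6 (1.42 ± 0.25), a minor pyruvate decarboxylase, and SFA1 (1.07 ± 0.17), and the zinc-responsive ADH4 fell, from 10.53, 9.93 and 9.23 to 8.74, 8.88 and 8.97 (-1.03 ± 0.23, adjusted p = 0.0756 on the median of the reference genes). Of 8 genes of acetate metabolism 5 rose and 1 fell. The stress-induced aldehyde dehydrogenase ALD3 went from 4.69, 4.57 and 4.84 to 7.50, 7.13 and 7.11 (2.55 ± 0.22). Mitochondrial ALD4 (1.43 ± 0.25), ACH1 (1.03 ± 0.17) and acetyl-CoA synthetases ACS1 (0.81 ± 0.16) and ACS2 (0.82 ± 0.24) rose, while ALD5 fell (-0.82 ± 0.24). The calls of ACS2 and ALD5 were lost without 48 h replicate 1 (adjusted p = 0.12) and 48 h replicate 3 (adjusted p = 0.144), and ACS2 changed by 0.53 without 24 h replicate 3.

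Of the genes for growth on non-fermentable carbon, gluconeogenesis and the glyoxylate cycle, 6 of 15 rose (median 0.50) and 3 kept the call without each array in turn. They were DAL7, a malate synthase of allantoin use, FBP1 (1.17 ± 0.25) of gluconeogenesis, the carnitine acetyltransferase CAT2 (1.03 ± 0.21), the malate synthase MLS1 (0.72 ± 0.18) and the malate dehydrogenases MDH2 (0.55) and MDH3 (0.63), of which MLS1, MDH2 and MDH3 lost their call to a left-out array. PCK1 (0.36), of the committed step of gluconeogenesis, and ICL1 (0.50), the isocitrate lyase, did not pass. The pathway was thus called in part only. In fatty acid oxidation and the peroxisome 11 of 38 genes rose, among them the oxidation enzymes POT1 (1.79 ± 0.18), POX1 (1.63 ± 0.20), SPS19 (1.57 ± 0.18), TES1 (1.13 ± 0.19) and FOX2 (0.90 ± 0.22, adjusted p = 0.0543 without 24 h replicate 2). For glycerol, GPP1, a phosphatase that makes it, fell from 11.34, 11.33 and 11.23 to 9.72, 9.78 and 10.66 (-1.25 ± 0.21). Its partner GPD2 changed by -1.18 (adjusted p = 0.072), and the glycerol importer STL1 (0.71), GCY1 (1.19) and DAK1 (0.88) rose. In the pentose phosphate pathway 5 of 14 rose and 2 fell, and RKI1 (-1.15) had the larger fall. Of paired isoenzymes, the minor forms SOL4 (2.14 ± 0.28), GND2 (1.24 ± 0.19) and TKL2 (0.96 ± 0.20) rose, beside NQM1 (1.48 ± 0.16), the partner of TAL1. Their counterparts GND1 (-0.19), TKL1 (-0.10) and TAL1 (-0.21) did not pass, and SOL3 fell (-0.72 ± 0.15, adjusted p = 0.21 on the median of the reference genes).

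The stress genes under Msn2 and Msn4 rose almost throughout. Of 75 measured, 60 rose and none fell, with a median of 1.28, and 47 kept the call whichever array was left out. Among them were small heat shock proteins, catalase, superoxide dismutase and the enzymes of reserve sugars. SPI1, a cell wall protein, read 8.26, 7.78 and 8.02 at 24 h and 10.72, 10.31 and 10.93 at 48 h (2.64 ± 0.22, adjusted p = 1.74e-06). HSP26, a small heat shock protein, went from 5.57, 5.97 and 6.62 to 8.36, 8.10 and 9.03 (2.44 ± 0.26). CTT1, the cytosolic catalase, went from 7.87, 7.24 and 7.20 to 10.17, 9.69 and 9.58 (2.38 ± 0.24). No array of these 3 genes overlapped between times, as in nearly all genes that passed. DCS2 (2.40 ± 0.22) and PAI3 (2.39 ± 0.33), an inhibitor of the vacuolar protease Pep4, were further large rises. DDR2, a classic member of the group, changed by -0.05 and did not pass. The regulators themselves, MSN2 (-0.11) and MSN4 (0.41), did not pass either. Of 23 genes of the Ras and protein kinase A pathway 2 rose, a share (8.70%) below that of all genes (11.3%). They were the kinase YAK1 (1.28 ± 0.21, shared probe set) and the phosphodiesterase PDE1 (1.09 ± 0.16).

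Reserve carbohydrate genes overlap with that list. Of 22 for trehalose and glycogen 13 rose and 1 fell (median 1.01). For glycogen, the synthase GSY2 (1.94 ± 0.20), the branching enzyme GLC3 (1.96 ± 0.25), the phosphorylase GPH1 (2.05 ± 0.28) and the debranching enzyme GDB1 (1.58 ± 0.21) rose together, so genes of synthesis and breakdown moved in the same direction. For trehalose, the synthase subunits TSL1 (2.12 ± 0.26), TPS2 (1.28), TPS1 (0.95) and TPS3 (0.89) and the trehalase NTH2 (1.13) rose, but TPS1, TPS2 and TPS3 lost their call to a left-out array. The 2 phosphoglucomutases parted: PGM2 went from 7.75, 7.77 and 7.54 to 9.85, 9.67 and 9.29 (1.92 ± 0.18), while the minor form PGM1 went from 7.00, 6.75 and 7.05 to 6.48, 6.40 and 6.42. The change of PGM1 (-0.50 ± 0.14, adjusted p = 0.03) was not called without 48 h replicate 2 (adjusted p = 0.0958) or on the median of the reference genes (adjusted p = 0.549).

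Chaperones did not move as 1 group. The median over 32 genes was 0.01, 10 of which rose while 3 fell. Besides HSP26, the rises included the membrane protein HSP30 (1.36 ± 0.24), HSP31 (1.36 ± 0.19), HSP12 (1.62 ± 0.20) and the disaggregase HSP104 (1.18 ± 0.19). SSA2, a constitutive Hsp70, had one of the largest falls of all protein-coding genes, from 11.39, 11.36 and 11.74 to 9.67, 9.29 and 9.65 (-1.96 ± 0.21, adjusted p = 1.27e-05). Its probe set may also read SSA1, a close copy, which rose by 0.65 on its own probe set. The other falls were those of HSC82 (-0.94), the constitutive Hsp90, and of the co-chaperone YDJ1 (-0.58). Of the 3 falls, that of SSA2 alone passed on the median of the reference genes, and 2 kept the call whichever array was left out. HSP82, the inducible Hsp90, changed by 0.31 and did not pass. Of 33 genes of oxidative stress defence 12 rose and 2 fell. SOD2 (1.93 ± 0.27), TRX3 (1.77 ± 0.23) and PRX1 (1.71 ± 0.24) act in mitochondria, and GPX1 (1.52 ± 0.15) and GRX2 (1.16 ± 0.17) rose as well, while GPX2 fell (-0.81 ± 0.21, adjusted p = 0.0871 on the median of the reference genes).

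**Figure D3:**
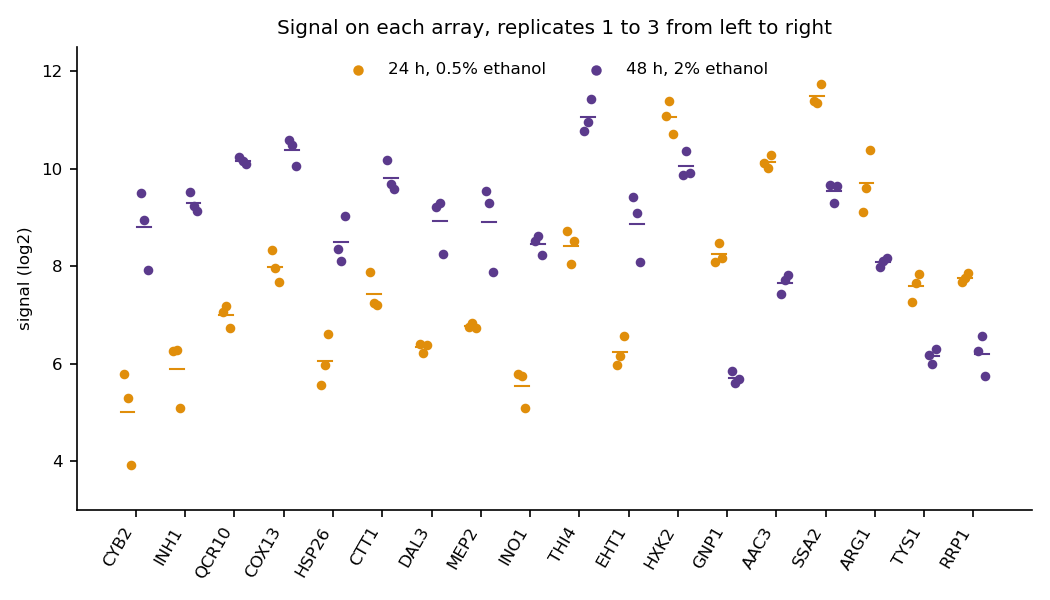
RNA signal (log2, vertical axis) on each array for 18 genes, with replicates 1 to 3 from left to right and bars at the means. Orange points are the 3 arrays of 24 h (0.5% ethanol) and purple points those of 48 h (2% ethanol). All 18 genes passed, and the groups do not overlap for any of them, as for 1019 of the 1030 genes that passed. Replicate 3 is the lowest 48 h array for CYB2, INH1, QCR10, COX13, CTT1, DAL3, MEP2, INO1, EHT1 and RRP1.

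Genes for poor nitrogen sources rose. Allantoin is a store of nitrogen that yeast breaks down through urea when better sources are gone. Of 10 genes of that pathway 7 rose and none fell (median 1.16), 6 of them without each array in turn. DAL3, of ureidoglycolate breakdown, read 6.40, 6.23 and 6.39 at 24 h and 9.22, 9.29 and 8.25 at 48 h (2.58 ± 0.24, adjusted p = 3.69e-06). The urea permease DUR3 went from 5.95, 5.89 and 5.38 to 8.64, 8.63 and 7.66 (2.56 ± 0.30). In both genes 48 h replicate 3 lay about 1 log2 unit below the other arrays of 48 h and still above every array of 24 h. The same held for DAL1 (2.19 ± 0.29), the allantoinase, at 9.31, 9.17 and 7.92. DAL7 (1.92 ± 0.33), DAL2 (1.52 ± 0.23), the permease DAL4 (0.79 ± 0.18) and the repressor DAL80 (0.74, lost to a left-out array) also rose, and DAL5 (0.59), DAL81 (0.20) and DAL82 (-0.12) did not pass.

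Of 35 other genes under nitrogen catabolite repression 17 rose and none fell (median 0.63), and 11 kept the call without each array in turn. The ammonium permease MEP2 read 6.76, 6.84 and 6.73 at 24 h and 9.55, 9.31 and 7.88 at 48 h (2.13 ± 0.33). The general amino acid permease GAP1 read 6.69, 6.70 and 6.30 and then 9.25, 8.75 and 7.56 (1.96 ± 0.32). Again 48 h replicate 3 was the lowest array of its time. CAR1 (1.96 ± 0.26), the arginase, the proline oxidation genes PUT1 (1.59 ± 0.24) and PUT2 (1.52 ± 0.19) and ATO2 (1.69 ± 0.23), a putative ammonium exporter, completed the 6 largest rises. Of 22 amino acid permeases and their regulators 4 rose (18.2%) and 2 fell (9.09%), against 11.3% and 6.95% of all genes. GNP1, which imports glutamine and other amino acids and is induced by external amino acids, had the largest fall of any protein-coding gene, from 8.09, 8.48 and 8.16 to 5.85, 5.60 and 5.68 (-2.53 ± 0.17, adjusted p = 4.71e-07). The tryptophan permease TAT2 fell by 0.81 on the log2 scale (adjusted p = 0.0554 without 48 h replicate 3 and 0.0946 on the median of the reference genes). ALP1 (1.47 ± 0.22) and CAN1 (1.04 ± 0.24), which import basic amino acids, MUP3 (1.01 ± 0.25) and AGP1 (0.77 ± 0.20) rose, of which ALP1 alone passed without each array in turn.

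Amino acid synthesis genes fell in part, and few of these calls held on every scale. In arginine synthesis ARG1 went from 9.12, 9.61 and 10.40 to 7.99, 8.10 and 8.18 (-1.62 ± 0.31) and ARG3 from 5.96, 6.46 and 7.65 to 5.01, 5.46 and 5.41 (-1.40 ± 0.33). Both were highest in 24 h replicate 3, without which ARG3 changed by -0.92. Both passed on the median of the reference genes (adjusted p 0.00724 and 0.0291). CPA1 rose (0.47 ± 0.15, adjusted p = 0.13 without 48 h replicate 2). In lysine synthesis 5 of 10 fell and 1 rose (median -0.55), led by LYS9 (-1.18 ± 0.24), which was the single member called lower on the median of the reference genes. For branched-chain amino acids 3 of 13 fell and 1 rose: LEU9 (-1.21 ± 0.26), LEU1 (-0.92 ± 0.21) and LEU2 (-0.62 ± 0.15) fell, and the cytosolic aminotransferase BAT2 (0.65 ± 0.17) rose. For histidine and aromatic amino acids 6 of 21 fell, from HIS1 (-0.95 ± 0.23) and TRP4 (-0.84 ± 0.17) to TRP5 (-0.48 ± 0.14), while ARO9, an aminotransferase of aromatic amino acid breakdown, rose (0.80 ± 0.16). On the median of the reference genes 1 gene was called lower in each of these 3 groups, LYS9, LEU9 and TRP4. The calls of LEU2, BAT2 and TRP5 were lost to a left-out array.

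Serine, glycine and one-carbon genes moved both ways. SHM1, the mitochondrial serine hydroxymethyltransferase, rose (0.91 ± 0.17), and SHM2, the cytosolic form, changed by -0.44 (adjusted p = 0.11). Of 16 genes 4 fell, GCV1 (-0.76 ± 0.17) and GCV2 (-0.95 ± 0.18) of glycine cleavage and SER1 (-0.81 ± 0.16) and SER2 (-0.66 ± 0.17) of serine synthesis, while SER3, of serine synthesis too, rose (1.18 ± 0.28). Of the 4, SER1 alone was lower on the median of the reference genes, and SER2 also lost its call to a left-out array. For sulfur amino acids 3 of 31 fell, SAM4, HOM2 (-0.87) and MET16 (-0.70), and 3 rose, STR3, SAM2 and the activator MET4 (0.66). Each count is a share of 9.68%, against 6.95% of all genes lower and 11.3% higher. SAM4 alone of the 3 was lower on the median of the reference genes, and MET16 and MET4 lost their call to a left-out array. SAM4, a methyltransferase that recycles S-adenosylmethionine to methionine, went from 8.14, 8.11 and 7.99 to 6.44, 6.67 and 6.11 (-1.67 ± 0.18, adjusted p = 1.21e-05). SAM2, which makes S-adenosylmethionine, rose from 10.19, 10.40 and 9.82 to 11.03, 11.14 and 11.04 (0.93 ± 0.21). STR3, of cysteine and methionine interconversion, rose from 7.38, 6.80 and 5.66 to 8.31, 8.00 and 8.31 (1.59 ± 0.32).

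Nucleotide synthesis genes were lower. Of 21 purine genes 9 fell and none rose (median -0.48), and the range of these falls was narrow, from ADE2 (-0.88 ± 0.22) and ADE4 (-0.82 ± 0.19) to IMD4 (-0.53). None passed on the median of the reference genes, while 7 were lower on their mean. Of 16 pyrimidine and deoxynucleotide genes 9 fell and 3 rose (median -0.62), and 2 were lower on the median of the reference genes. RNR3, a ribonucleotide reductase subunit read on a probe set of a shared type, had the largest of these falls, from 9.37, 9.45 and 9.36 to 7.52, 7.54 and 7.96 (-1.72 ± 0.16). FUR1 (-0.95 ± 0.17), of uracil salvage, URA7 (-0.84 ± 0.20), URA3 (-0.79 ± 0.21) and URA4 (-0.79 ± 0.18) followed. Paired isoenzymes again went opposite ways: URA10 rose (1.58 ± 0.20) while URA5, which catalyses the same step, fell (-0.52), and the CTP synthase URA8 rose (0.65 ± 0.18) while URA7 fell. These pairs rest on weak calls: URA5 missed the threshold under 10 of 18 alternatives, and URA5, URA7, URA8 and URA3 lost their call to a left-out array, as did ADE2 and IMD4.

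The machinery of translation was lower in many small steps. Of 119 genes of ribosome assembly 28 fell and none rose, with a median of -0.56. RRP1, for the large subunit, went from 7.68, 7.76 and 7.86 to 6.26, 6.58 and 5.75 (-1.57 ± 0.36), and DBP2, an RNA helicase, from 9.80, 9.53 and 9.30 to 8.61, 8.91 and 7.32 (-1.26 ± 0.35, adjusted p = 0.106 and a change of -0.78 without 48 h replicate 3). In both, 48 h replicate 3 was the lowest array. NOP4 (-0.99 ± 0.29), NIP7 (-0.99 ± 0.26), PWP1 (-0.95 ± 0.29) and UTP8 (-0.86 ± 0.21) also fell. Single calls here were fragile: 3 of the 28 passed whichever array was left out, 5 were called lower without 48 h replicate 1, and 3 on the median of the reference genes, where the list's median was -0.28. The group as a whole was lower on each array of 48 h, with medians over its members of 6.66, 6.80 and 6.41, than on each of 24 h, at 7.15, 7.25 and 7.21.

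Cytosolic ribosomal proteins had 11 of 81 genes lower and none higher (median -0.32). RPS26B fell from 10.29, 10.46 and 10.65 to 9.29, 9.33 and 9.35 (-1.14 ± 0.24), and RPL13A (-0.81 ± 0.18) and RPS7B (-0.77 ± 0.17) fell too. RPL7A, RPL7B and RPL9A, which fell by 0.93, 0.98 and 1.00 on the log2 scale, have near-identical copies, so their probe sets may share signal. The call of RPL9A was lost to a left-out array. On the median of the reference genes 1 was lower and 1 higher, with a list median of -0.04. Of 38 subunits of RNA polymerases I and III 5 fell, the largest being RPA43 (-1.05 ± 0.30). Of them, 1 was lower on the median of the reference genes and the list's median went from -0.34 to -0.06, and 1 of the 5 passed whichever array was left out, which RPA43 did not. Of 37 translation factors 8 fell, led by TEF4 (-1.06 ± 0.21) and TIF3 (-1.06 ± 0.20). Of these, 2 were lower on the median of the reference genes and 3 on their mean, and the list's median went from -0.41 to -0.12 on the former. Of 21 tRNA synthetases and their partners 7 fell (median -0.53). TYS1, for tyrosine, went from 7.27, 7.66 and 7.84 to 6.19, 5.99 and 6.30 (-1.43 ± 0.20, adjusted p = 0.000153). It passed on the median of the reference genes, as did VAS1 (-0.93 ± 0.17) and THS1 (-0.86 ± 0.16).

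The largest falls of all were those of tRNA genes. Of 91 measured, 82 fell and none rose, with a median of -1.36 and a range of -2.87 to -0.01. YNCC0010C read 7.93, 8.21 and 8.34 at 24 h and 5.28, 5.56 and 5.02 at 48 h (-2.87 ± 0.26). YNCD0014C (-2.87 ± 0.25) and YNCB0013W (-2.86 ± 0.24) had nearly the same values. Of the 91, 87 were read on probe sets of a shared type, so tRNA genes of one family repeat one signal and the count is not of independent genes. On the median of the reference genes 62 were lower, with a median of -1.08. The primer of the cDNA is not given in the labels, and mature tRNA has no poly(A) tail, so what these probe sets measured is not known. Of 57 small nucleolar RNA genes 10 fell (median -0.46), among them SNR54 (-1.34 ± 0.29) and SNR38 (-1.16 ± 0.24). There were 6 lower, with a median of -0.17, on the median of the reference genes. Besides GNP1 and AAC3, the protein-coding genes that fell at least 4-fold were YOL014W (-2.05) and YMR230W-A (-2.12), which have no symbol.

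Lipid and vitamin genes held some of the largest single rises. INO1, which makes inositol phosphate from glucose 6-phosphate, read 5.79, 5.75 and 5.10 at 24 h and 8.52, 8.62 and 8.23 at 48 h (2.91 ± 0.27, adjusted p = 3.33e-06). The methyltransferases of phosphatidylcholine synthesis CHO2 (1.76 ± 0.22) and OPI3 (1.73 ± 0.21), the choline kinase CKI1 (1.09 ± 0.19) and the inositol permease ITR1 (1.04 ± 0.21) rose with it. All 5 kept the call without each array in turn, and the other 18 of the 23 genes in this group did not pass, including the regulators INO2 (0.17), INO4 (0.46) and OPI1 (-0.03). In thiamine and pyridoxine synthesis 5 of 17 rose. THI4, of thiazole synthesis, went from 8.72, 8.04 and 8.52 to 10.78, 10.97 and 11.42 (2.63 ± 0.24), and the permease THI7 (1.11 ± 0.18), THI73 (1.85 ± 0.20), the activator THI2 (1.00 ± 0.21) and THI20 (0.92 ± 0.27) rose too, though THI20 missed the threshold under 9 of 18 alternatives. The biotin permease VHT1 rose by 1.64 ± 0.26 and BIO5 by 0.85 ± 0.20, the latter lost to a left-out array.

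In fatty acid synthesis and activation 4 of 14 genes rose and 1 fell. FAA1 went from 8.03, 7.57 and 5.91 to 9.59, 9.12 and 8.73 (1.98 ± 0.39), with 24 h replicate 3 the lowest array. ACC1 (0.86 ± 0.18), of the first step, and FAS1 (0.69 ± 0.20) rose, as did FAA2 (1.06), ELO2 fell (-0.80 ± 0.22), and OLE1 (0.42), the desaturase, did not pass. FAS1 has other probe sets, and the mean of them gave -0.37. FAS1, FAA2 and ELO2 lost their call to a left-out array, and FAA2 changed by 0.64 without 24 h replicate 3. Of 28 genes for ergosterol 4 rose, a share (14.3%) near that of all genes (11.3%). They were ERG13 (0.92 ± 0.21), MVD1 (0.76 ± 0.21), ERG20 (0.74 ± 0.20) and ERG3 (0.60 ± 0.16), and the regulator ECM22 fell (-0.58 ± 0.16). The 4 rises were each lost without 48 h replicate 1 (adjusted p 0.0509 to 0.132) and the fall without 48 h replicate 3 (0.0679).

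PHM8, a phosphatase that acts on nucleotides in ribose salvage, went from 5.99, 5.71 and 5.21 to 8.20, 8.83 and 8.11 (2.75 ± 0.25, adjusted p = 2.84e-06). It stands in the phosphate list, of whose 26 genes 1 other rose, PHM6 (0.78 ± 0.20), and 1 fell, PHO90 (-0.58 ± 0.17), both lost to a left-out array. The share of the list that rose was 7.69%, against 11.3% of all genes. In 18 vacuolar hydrolases and their inhibitors 8 rose. The 3 largest rises were of inhibitors, PAI3 (2.39), TFS1 (1.74 ± 0.27) and PBI2 (1.67 ± 0.18), and the proteases PRB1 (0.83 ± 0.20), PRC1 (0.69) and PEP4 (0.51) rose by less. PEP4 lost its call to a left-out array, and PRB1 changed by 0.54 without 24 h replicate 3. Of 36 autophagy genes 7 rose (median 0.19), among them ATG8 (1.09 ± 0.26, adjusted p = 0.0525 without 48 h replicate 1), and the receptors ATG32 (1.10 ± 0.22) for mitochondria and ATG36 (1.07 ± 0.21) for peroxisomes. No gene of the proteasome passed among 37.

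Among genes of aroma formation 6 of 17 rose and 2 fell. EHT1, which makes ethyl esters of medium-chain fatty acids, read 5.97, 6.17 and 6.56 at 24 h and 9.41, 9.09 and 8.10 at 48 h (2.63 ± 0.27). The butanediol dehydrogenase BDH1 (1.59 ± 0.20) and its neighbour BDH2 (2.26 ± 0.30) rose. ATF2, an alcohol acetyltransferase, fell from 8.26, 8.42 and 7.66 to 7.05, 7.19 and 6.53 (-1.19 ± 0.26), while ATF1 changed by -0.12 and did not pass. Cell wall genes had 6 of 39 higher (15.4%) and 2 lower (5.13%), against 11.3% and 6.95% of all genes. SPI1, the flocculin FLO11 (1.31 ± 0.31, adjusted p = 0.059 without 48 h replicate 1, and a change of 0.85 without 24 h replicate 3) and GSC2 (1.00 ± 0.19) were among those higher, and GAS3 (-1.28 ± 0.22) was lower. The mean of GSC2's probe sets was -0.07. The list of drug and acid pumps also holds the membrane protein HSP30. Of its 25 genes 3 were higher, a share (12.0%) near that of all genes (11.3%), PDR15 (2.05 ± 0.36), TPO4 (1.95 ± 0.17) and HSP30. The plasma membrane proton pump PMA1 (0.04) and the weak acid pump PDR12 (0.86, adjusted p = 0.23) did not pass.

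Genes of division were called in small numbers at this step. Of 28 cell cycle genes 3 fell, the mitotic cyclin CLB1 (-1.10 ± 0.25), the inhibitor of the start of the cycle WHI5 (-0.98 ± 0.19) and the kinase CDC5 (-0.82 ± 0.25), and CLB6 rose (0.62 ± 0.13). Of 44 genes of DNA replication 2 fell, RFC1 (-0.86 ± 0.19) and ORC1 (-0.73 ± 0.22). The shares lower were 10.7% for the cell cycle and 4.55% for DNA replication, against 6.95% of all genes. The share of cell cycle genes higher was 3.57%, against 11.3% of all genes. CDC5 missed the threshold under 9 of 18 alternatives and ORC1 under 7 of 17. Of 5 histone genes HTB1 fell (-0.65 ± 0.16, adjusted p = 0.257 on the median of the reference genes). Of 25 pheromone response genes 5 rose, the a-factor genes MFA1 (0.81 ± 0.16, shared probe set) and MFA2 (0.78 ± 0.18), BAR1 (0.62 ± 0.15), AGA2 (0.56 ± 0.15) and FUS1 (0.66 ± 0.19). All but FUS1 are typical of a cells, but STE2 and STE6, typical of a cells too, did not pass. The alpha-factor genes MF(ALPHA)1 and MF(ALPHA)2 did not pass either. BAR1, AGA2 and FUS1 read under 4.2 on all 6 arrays, at the dim end of the scale, and MFA2, AGA2 and FUS1 lost their call to a left-out array. Of 21 genes of protein entry to the endoplasmic reticulum 2 fell (9.52%, against 6.95% of all genes), SEC61 (-0.68) and SEC63 (-0.66). Neither kept its call whichever array was left out or on the median of the reference genes. None of 10 seripauperin genes passed, and all 10 are on probe sets of a shared type. In iron and zinc use 3 of 34 rose (8.82%) and 2 fell (5.88%), and in meiosis and sporulation 2 of 27 rose (7.41%). These shares lie below those of all genes (11.3% higher and 6.95% lower).

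Some neighbouring genes moved together. There were 10 runs of at least 3 adjacent measured genes that were called in the same direction, 9 of them higher. The longest, of 4 genes, was MIR1, BNA2, YJR079W and AIM24 on chromosome X. DAL1, DAL4 and DAL2 stand beside each other on chromosome IX, in the known cluster of allantoin genes, and GDH3, BDH2 and BDH1 on chromosome I. The single lower run was RPS1A, SIR3 and ECM7 on chromosome XII. Order was taken from RefSeq, and the number expected by chance was not tested.

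The next step, 48 h to 60 h, covered the same rise in ethanol, 1.5 percentage points, in less time. Of 5656 genes 383 passed in it (6.77%), 160 higher (2.83%) and 223 lower (3.94%). Both steps use the 48 h arrays, so the values are given side by side, and the difference of the 2 changes was tested by itself. That difference passed for 74 genes (1.31%), 52 positive and 22 negative. The count rests on the arrays of 48 h: it was 4, 9 and 33 without replicates 1, 2 and 3 of that time, 42 and 186 without 24 h replicates 2 and 3, and 45 without 60 h replicate 2.

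The 5 largest positive differences were of genes that rose by 48 h and then stopped or turned, a pattern that a ranking on this difference favours by its form. Whether these single differences hold without each array is not given here. DAL7 went from 5.31 ± 0.12 at 24 h to 7.23 ± 0.47 at 48 h and 5.49 ± 0.25 at 60 h (SD, n = 3), a difference of steps of 3.66 ± 0.58 (adjusted p = 0.006). CAR1 went from 9.07 ± 0.30 to 11.03 ± 0.48 and 9.87 ± 0.38, and fell in the second step too (-1.15 ± 0.26). DUR3 was 8.31 at 48 h and 7.41 at 60 h, a second change of -0.90 that did not pass. INH1 stayed at 9.30 and 9.29, and THI4 stood at 11.06 and 10.62. MEP2, GAP1 and PUT1, of the same nitrogen groups, had second steps of 1.38, 1.71 and 2.22, all of which passed upward, and their differences of steps (0.75, 0.25 and -0.63) did not pass.

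The largest negative difference was that of DPI8, which went from 8.54 ± 0.29 to 7.65 ± 0.07 and then 9.57 ± 0.29 (-2.80 ± 0.48, adjusted p = 0.012). Its fall in the first step was lost to a left-out array, and it was highest at 340 h (11.63). ARG1 went from 9.71 ± 0.64 to 8.09 ± 0.10 and 8.81 ± 0.60 (-2.34 ± 0.53, adjusted p = 0.045). The other 3 were the tRNA genes YNCL0009C, YNCD0014C and YNCD0009W, whose falls of 2.84 to 2.87 on the log2 scale were followed by changes of -0.40 to -0.58 that did not pass. HXK2 fell by like amounts in both steps (-1.01 and -1.06). In the respiratory chain the second step had a median of 0.45 in complex III and 0.41 in complex IV. Ribosome assembly genes had a second median of -0.05, whereas cytosolic ribosomal proteins had one of -0.61 after -0.32 in the first.

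**Figure D4:**
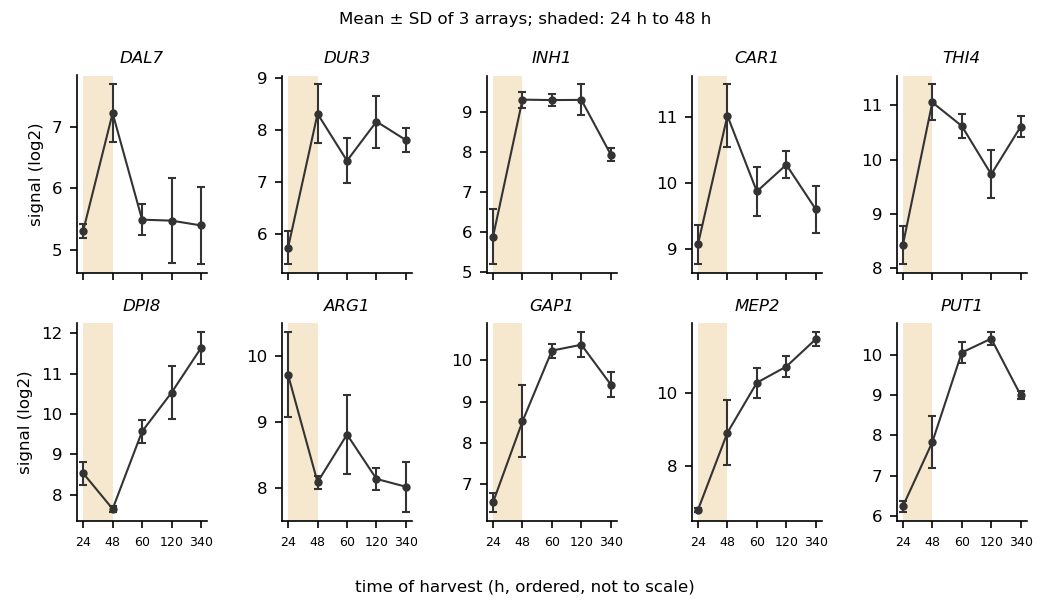
Mean RNA signal (log2, vertical axis) ± SD of 3 arrays at 24, 48, 60, 120 and 340 h (horizontal axis, ordered but not to scale) for 10 genes, with the step from 24 h to 48 h shaded. DAL7, DUR3 and CAR1 are lower at 60 h than at 48 h, while GAP1, MEP2 and PUT1 are higher, and DPI8 dips at 48 h.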

How the data were processed

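RNA was measured on 21 one-colour Affymetrix arrays. Per the submitters' processing notes the authors used RMA and affy, which left log2 signals per probe set in the deposited matrix. Versions, parameters and the arrays normalized together are not given in the sources used here. RMA makes arrays alike in distribution, so a change in total RNA per cell is not seen. The number of arrays limits the precision.

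Of 9335 probe sets, 60 controls were left out. A gene was read on its probe set with the highest mean over 15 arrays (24 h to 340 h), and probe sets with no gene (2443) or several (328) were tested without being named. All 6504 probe sets with 1 gene matched RefSeq. Group means were fitted to the 15 arrays with limma 3.58.1 in R 4.3.3 (lmFit, eBayes), with two-sided tests and Benjamini-Hochberg adjustment over 9275 probe sets. The 1 h and 12 h arrays entered 1 alternative. Of the probe sets, 1223 passed (13.2%).

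Replicate numbers recur at each time, with no label of what they mark. Deviations of same-numbered arrays from their group means correlated at 0.15, 0.02 and 0.17, not all above 0.1, so the arrays were not paired.

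Named genes are the 10 largest rises and falls with arrays apart, up to 6 members of each of 63 lists, all of lists of up to 25, the 5 largest step differences each way and the 5 reference genes. Members and lists were chosen with earlier results of these data known, and genes named beyond the rule were chosen after their values were seen. Promoters were not analysed here.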

Additional observations from a re-analysis of the deposited data

How the results depend on the processing

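Of 331 named genes that passed, 187 passed under every alternative that held their probe set, and the 23 genes with the largest changes all did. The settings without shared probe sets and with a mean signal of at least 6 leave some probe sets out, and such genes were not tested there. Thus YNCC0010C was tested in 16 alternatives and GNP1 in 17, against 18 for AAC3. No list with most of its members called changed the sign of its median. The mean of all probe sets turned 2 genes, FAS1 (-0.37) and GSC2 (-0.069). On the median of 5 reference genes 1031 genes were higher and 132 lower, of which 515 and 70 at least 2-fold. Without probe sets marked as shared, 49 genes were lower at least 2-fold, against 123. Leaving out each array gave 630 to 1003 genes changed, 400 to 589 higher, 230 to 414 lower and 736 to 1220 probe sets, each lowest without 48 h replicate 1. The difference between the steps passed for 74 genes, for 143 with the replicate block, for 120 with 1 probe set per gene as the features tested, and for 4 to 186 without single arrays. The replicate block called 718 genes higher and 516 lower, and the labels do not say that the numbers pair the arrays.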
